A study of Mus musculus with 4 samples.

Results

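The nuclear genes of the mitochondrial respiratory chain and ATP synthase were examined in OG2ES cells, an established mouse embryonic stem cell line that the labels trace to the inner cell mass. They were taken by name from the deposited table: every row starting with Ndufa, Ndufb, Ndufc, Ndufs, Ndufv, Uqcr, Cox4, Cox5, Cox6, Cox7, Cox8 or Atp5, together with Sdha, Sdhb, Sdhc, Sdhd and Cyc1, and without 7 rows named as pseudogenes. This gave 94 of 50600 rows. Of these, 36 belong to complex I, 4 to complex II, 9 to complex III, 20 to complex IV and 17 to complex V by name. The other 8 (Ndufaf1 to Ndufaf8) are assembly factors of complex I, which the name rule takes in although they are not subunits. Ndufa4 and its paralog Ndufa4l2 were counted with complex IV, where the Ndufa4 protein is now placed. Atp5sl and Atp5s stayed with complex V by name, although neither codes for a subunit of the ATP synthase.

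The study compared 2 libraries of wild-type cells (WT) with 2 libraries of Myh9 knockout cells (Myh9 KO), which lack the myosin heavy chain of non-muscle myosin IIA, in work on the shape of ES cell colonies. Both genotypes were grown in mouse ES medium with 2i, a pair of kinase inhibitors that keeps such cells in the naive state. How the knockout was made and whether it is 1 clone is not given in the sources used here, and the knockout line and the loss of Myh9 cannot be told apart here. No label states that replicates were separate cultures, so p-values measure only how far these libraries lie apart, and that spread may be technical. Myh9 itself was listed at 83 and 100 in WT and at 9 and 9 in the knockout.

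The respiratory chain passes electrons from NADH (complex I, NADH dehydrogenase) and succinate (complex II, succinate dehydrogenase) by way of ubiquinone, complex III (the cytochrome bc1 complex) and cytochrome c to complex IV (cytochrome c oxidase). Complexes I, III and IV pump protons, and complex V (ATP synthase) uses the gradient to make ATP. Most subunits are encoded in the nucleus, while the mitochondrial genome supplies core subunits of every complex except complex II. Naive mouse ES cells are known to use respiration together with glycolysis.

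The deposited values were whole numbers whose sums lay between 992098 and 992317 per library, as a per-million unit gives when its decimals are dropped. They are not read counts, the depth behind them is unknown, and whether they are scaled by transcript length is not stated, so levels are compared between libraries and not between genes. In such bulk samples fewer cells of a kind and less RNA per cell cannot be told apart. All 8 ES cell markers were above 100 in every library, with sums of 9809 and 10027 for WT and 8578 and 8413 for the knockout. A large part of these sums is Dppa5a (4755 and 4841 against 3438 and 3205), which fell, as did Sox2 (177 and 183 against 126 and 121). Zfp42 went the other way without a call (140 and 142 against 210 and 181). Both knockout values were above both WT values in 2 of the 8, below them in 3 and overlapped them in 3, beside 26.2% of all tested genes above and 27.3% below. Of 16 feeder fibroblast markers 11 were at 0 in all libraries, among them Col1a1, Col1a2, Col3a1 and Dcn. The feeder list summed to 207 and 209 for WT and to 149 and 162 for the knockout, nearly all from Vim, which ES cells also express, and Fstl1, which fell.

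Of the 94 members, 89 had a mean value of at least 1 and were tested. "Rose", "fell" and "called" are used only of genes with a Benjamini-Hochberg adjusted p below 0.05 over all 11231 tested genes in 2 limma fits, with the values as deposited and with random decimals added. Log2 fold changes (Myh9 KO over WT) were computed after adding 1 to each value, which understates changes of low genes. Standard errors (SE) and 95% intervals are limma's, with n = 2 libraries per group, and an adjusted p is that of the deposited values unless random decimals are named. The 5 members under the filter were Cox6a2 and Cox8b, muscle isoforms at 0 throughout, Cox8c (0 and 0 in WT, 1 and 1 in the knockout), Cox7b2 (1 and 0, against 0 and 0) and Atp5s (1 and 1, against 1 and 0).

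As a group the respiratory chain genes differed little between genotypes. By the call rule 5 members rose and 7 fell, so 13.5% of the 89 were called, beside 11.0% of all tested genes (5.15% higher and 5.81% lower). The members lie at higher values than most genes, and at a mean of at least 50 the share was 14.3% of 77 members and 18.4% of 2725 genes. These shares lie near their backgrounds. The median log2 fold change was -0.05 over the members and 0.00 over all tested genes, and 4 of the 89 members differed by 1.5-fold or more (4.49%, beside 14.3% of all genes). At a mean of at least 50 these shares were 2.6% of members and 6.09% of genes. By random decimals alone 11 members were higher (12.4%, beside 11.1%) and 19 lower (21.3%, beside 12.1%). At a mean of at least 50 the lower shares were nearly equal, 20.8% of members and 20.1% of genes, and the higher ones 13.0% and 17.9%. Both knockout libraries lay below both WT libraries in 41 members (46.1%, beside 27.3% of all genes) and above them in 20 (22.5%, beside 26.2%), and the groups overlapped in 28. At a mean of at least 50 they lay below WT in 42.9% of members and 37.2% of genes, and above it in 22.1% and 34.7%.

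The rises were Ndufa5 and Ndufv3 of complex I and Ndufa4, Cox6b2 and Cox4i1 of complex IV. The falls were Ndufb6, Ndufs3 and Ndufa8 of complex I, Cox5a and Cox7c of complex IV, Atp5a1 of complex V and the assembly factor Ndufaf5. The calls depended on having all 4 libraries: without WT 1 or without WT 2 only Cox6b2 was called, without Myh9 KO 1 the calls were Ndufa4, Ndufa4l2, Ndufa5 and Ndufv3 upward and Ndufaf2 downward, and without Myh9 KO 2 the same 4 upward. By random decimals alone, Ndufa4, Ndufa5, Ndufv3, Cox6b2 and Cox5a were called with each library left out in turn, where the spread comes from the 2 libraries of the other group alone and the lone library is assumed to vary like them.

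**Figure D1:**
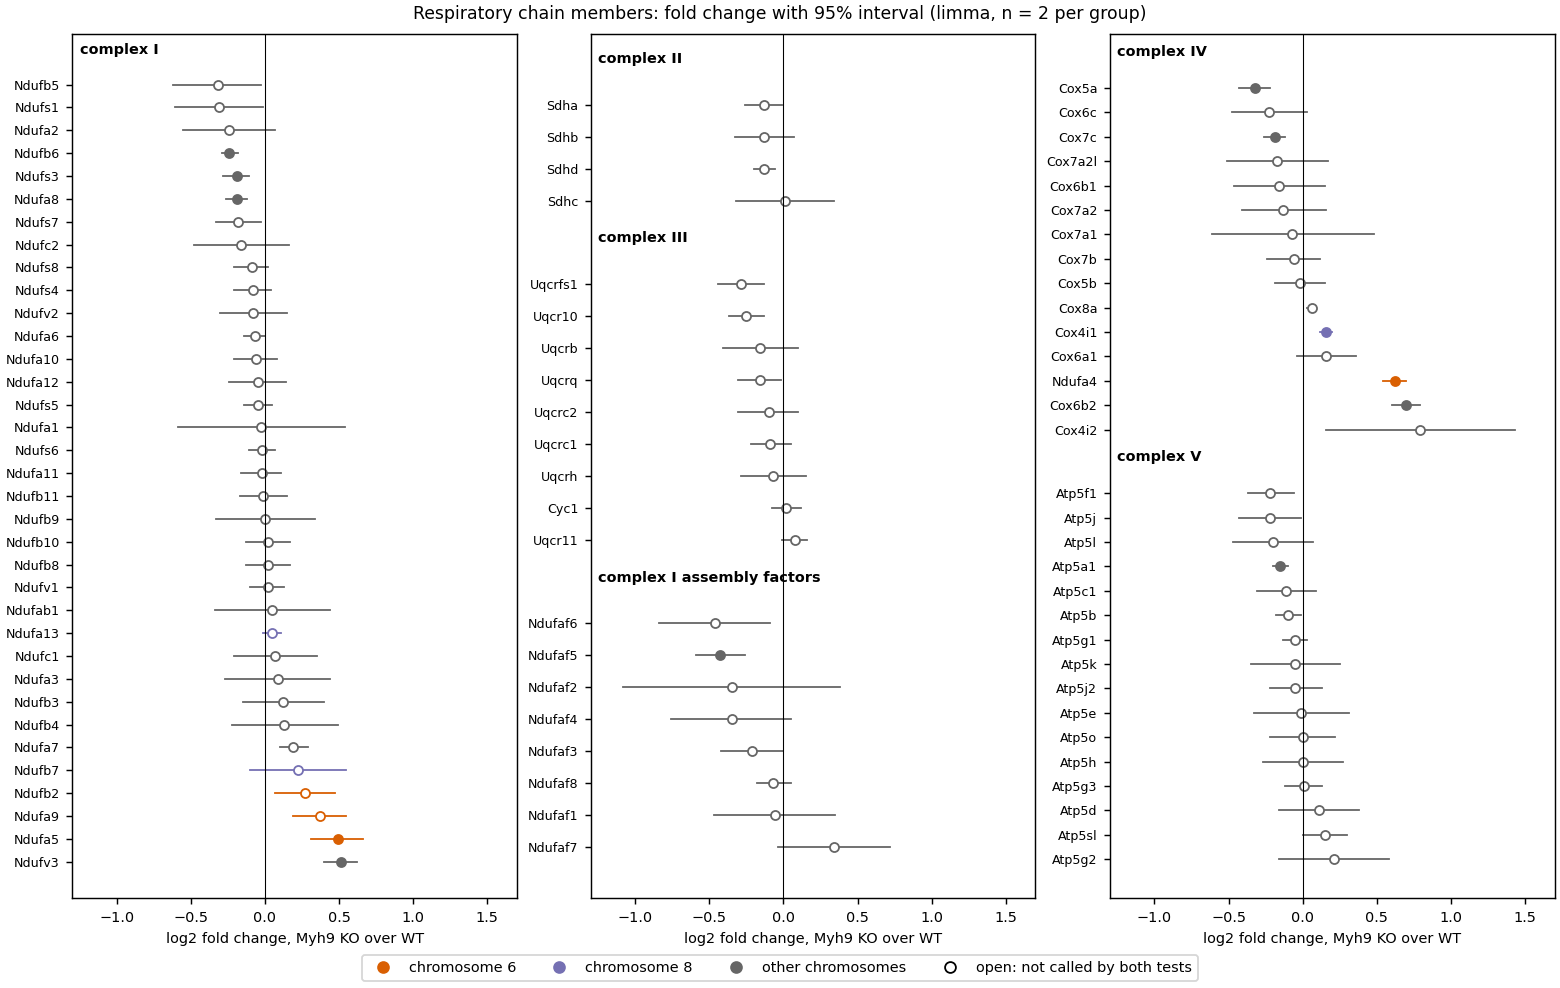
Log2 fold change (Myh9 KO over WT, x axis) of the tested members with their 95% intervals from limma, grouped by complex; filled points were called by both fits and colours give the chromosome. Most points lie close to 0, and the 4 chromosome 6 members lie between 0.27 and 0.62. Ndufa4l2, at 0 in WT, and 1 member of complex I are not drawn.

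In complex I the 7 nuclear core subunits, which carry the flavin, the iron-sulfur clusters and the ubiquinone site, had log2 fold changes of -0.31 to 0.02 with a median of -0.09. Of the 7, 1 fell, beside 5.81% of all tested genes and 9.28% of those with a mean of at least 50. The called subunit was Ndufs3, of the arm that reaches ubiquinone, at 159 and 160 in WT against 137 and 142 in the knockout (log2 fold change -0.19, SE 0.02, adjusted p = 0.0491 by limma). In 5 of the 7 both knockout values were below both WT values, beside 37.2% of all genes with a mean of at least 50. Ndufs1, the largest iron-sulfur subunit, was at 43 and 48 against 38 and 35, without a call (adjusted p = 0.142). Ndufv1, the flavin-binding subunit at which NADH is oxidized, was at 209 and 218 against 219 and 213. Its groups overlapped, and the 95% interval of its fold ran from 0.934 to 1.10.

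The 29 supernumerary subunits of complex I, which surround the core and serve its assembly and stability, had 2 calls in each direction and a median log2 fold change of 0.00. Of all tested genes 5.15% rose and 5.81% fell, and of those with a mean of at least 50, 9.14% and 9.28%. Ndufv3, a subunit of the NADH-oxidizing end of the matrix arm (mm10 chromosome 17, 31520115 to 31531326), rose to 380 and 363 in the knockout, against 259 and 262 in WT. Its log2 fold change of 0.51 (SE 0.03, adjusted p = 0.0161) was the largest in complex I. Ndufa5, also of the matrix arm (chromosome 6, 24518666 to 24528013), rose to 144 and 133, against 98 and 99 in WT (0.49, SE 0.05, adjusted p = 0.0364). For both genes the lower knockout library stood well above the higher WT library.

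The falls among supernumerary subunits were smaller. Ndufb6, of the membrane arm, fell to 199 and 199 from WT values of 237 and 232, a log2 fold change of -0.24 (SE 0.02, adjusted p = 0.0192). Ndufa8, likewise of the membrane arm, was at 138 and 142 in WT and fell to 122 and 123 (-0.19, SE 0.02, adjusted p = 0.0393). Of the 50-base words in the Ndufb6 transcripts 31.6% occur in other genes, chiefly Smim27, whose exons overlap 39.0% of those of Ndufb6. Smim27 lies on the other strand and had a mean value of 2.75. For Ndufs3 the share of such words is 17.9%, so reads of Ndufb6 and Ndufs3 may have been divided. For Ndufa5, Ndufv3 and Ndufa8 it is 0.7% or less.

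The subunits of complex I with the highest means among those not called were Ndufa7, of the matrix arm, at 900 and 871 against 999 and 1025 (adjusted p = 0.0557), and Ndufb8, of the membrane arm, at 634 and 621 against 615 and 656 (adjusted p = 0.825). Groups did not overlap for Ndufa7 and did for Ndufb8. Over the 36 subunits of complex I both knockout values were above both WT values in 8, below them in 14, and overlapped them in 14, where 34.7% of genes with a mean of at least 50 were above and 37.2% below.

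The assembly factors, which build complex I and are not part of the finished enzyme, had a median log2 fold change of -0.28. Of the 8, 7 were below 0, beside 5377 of all 11231 tested genes, and 1 fell, beside 5.81%. Values of the 8 were low, between 4 and 43, where a dropped decimal weighs more. Ndufaf5, which hydroxylates the core subunit Ndufs7, fell to 17 and 16 in the knockout, against 23 and 22 in WT (log2 fold change -0.43, SE 0.05, adjusted p = 0.0412), and was the 1 factor called. Ndufaf7, a mitochondrial methyltransferase, was the factor above 0, at 6 and 7 against 9 and 8 (adjusted p = 0.174). Ndufaf8 was at 43 and 43 against 40 and 42, and Ndufaf2 at 41 and 41 against 38 and 27, neither with a call. Of the 50-base words of Ndufaf2 64.1% occur in other genes. Without Myh9 KO 2 the median of the 8 was -0.16.

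Complex II, the only complex with all of its subunits encoded in the nucleus, had no called member among its 4 by either limma fit. Sdha, the flavoprotein that oxidizes succinate, was at 84 and 85 in WT and at 75 and 79 in the knockout (adjusted p = 0.133). Sdhb, the iron-sulfur subunit, was at 175 and 189 against 170 and 162 (adjusted p = 0.258). The membrane anchor Sdhd was at 208 and 206 against 191 and 186 (adjusted p = 0.0597). In these 3 genes both knockout values were below both WT values, beside 37.2% of all genes with a mean of at least 50. Each had a log2 fold change of -0.13. That of Sdhb was -0.19 without WT 1 and -0.08 without WT 2. The other anchor, Sdhc, was at 143 and 126 against 141 and 130, so its groups overlapped (log2 fold change 0.01, 95% interval of the fold 0.802 to 1.27).

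Of the 9 complex III members 0 were called by the deposited values or by both limma fits. By random decimals alone 3 were lower, beside 12.1% of all tested genes and 20.1% of those with a mean of at least 50. The median log2 fold change was -0.10, and in 6 of the 9 both knockout values were below both WT values, beside 37.2% of genes with a mean of at least 50. Uqcrfs1, the Rieske iron-sulfur protein that takes electrons from ubiquinol, was at 173 and 164 against 135 and 141, a log2 fold change of -0.29 (SE 0.04, adjusted p = 0.0632, and 0.00957 with random decimals). Uqcr10, a small accessory subunit, was at 1264 and 1203 against 1044 and 1025 (-0.25, SE 0.03, adjusted p = 0.0518, and 0.00385 with random decimals). Both genes were called by both fits when the tested genes were limited to a mean of at least 10.

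Cyc1, the gene of cytochrome c1, was at 463 and 471 against 464 and 484, and its groups overlapped (95% interval of the fold 0.944 to 1.09). Uqcr11, a further accessory subunit, was at 854 and 831 against 877 and 899 and was the 1 complex III member with both knockout values above WT (adjusted p = 0.175).

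Complex IV held the widest differences, from a log2 fold change of -0.32 to 0.70 among its called genes. Cox6b2, the testis isoform of a subunit on the intermembrane face of the enzyme (chromosome 7, 4751792 to 4753094), rose to 123 and 123 in the knockout, against 77 and 74 in WT. This is a log2 fold change of 0.70 (SE 0.03, adjusted p = 0.00746), or 1.62-fold with a 95% interval of 1.52 to 1.73. Ndufa4 (chromosome 6, 11900292 to 11907497) rose to 800 and 775, against 514 and 509 in WT (0.62, SE 0.02, adjusted p = 0.00655). Cox4i1, the ubiquitous isoform of subunit IV (chromosome 8, 120668222 to 120674207), rose by less, to 1899 and 1905 against 1691 and 1711 (0.16, SE 0.01, adjusted p = 0.018). None of the 50-base words of Ndufa4 and Cox6b2 occurs in another gene.

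Cox5a and Cox7c went the other way. Cox5a, which binds subunit IV early in assembly (chromosome 9, 57521274 to 57532426), fell to 770 and 744 from WT values of 961 and 933, a log2 fold change of -0.32 (SE 0.03, adjusted p = 0.0293). The ratio of the Cox5a value to that of its partner Cox4i1 was 0.568 and 0.545 in WT and 0.405 and 0.391 in the knockout. As these genes were called in opposite directions, the ratio restates their calls and adds no further evidence. Cox7c, a small membrane subunit, was at 1852 and 1809 and fell to 1621 and 1593 (-0.19, SE 0.02, adjusted p = 0.0366). Once the trend on GC content and transcript length was removed, the log2 fold change of Cox5a was -0.19, still called, and that of Cox7c 0.02. For Cox7c 22.1% of the 50-base words occur in other genes.

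**Figure D2:**
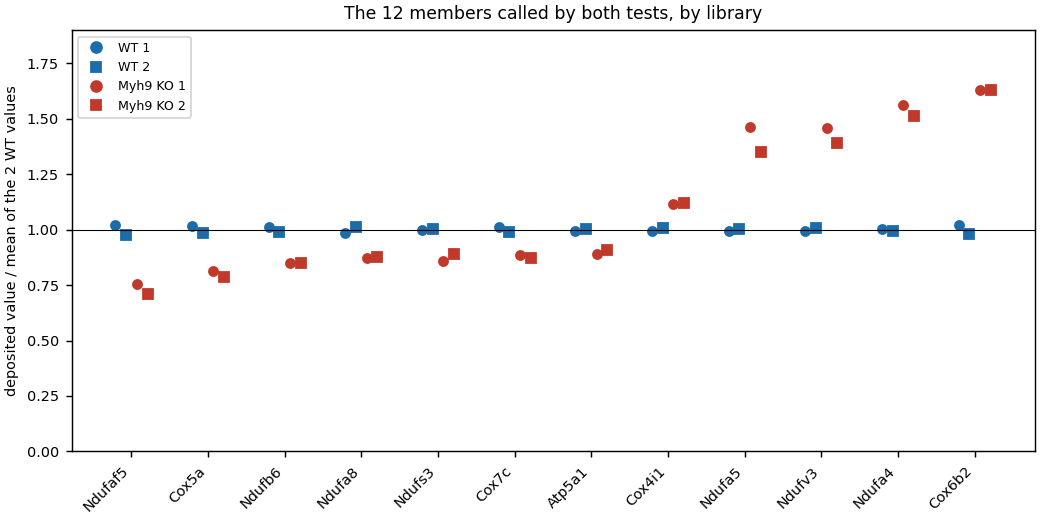
Deposited value of each of the 12 called members in each library, divided by the mean of its WT values (y axis, linear from 0), with circles for replicate 1 and squares for replicate 2. Myh9 KO points (red) lie apart from WT points (blue) for every gene shown, as the choice of called genes favours, and Ndufa5, Ndufv3, Ndufa4 and Cox6b2 stand above the others.

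Several complex IV subunits have isoforms from separate genes, which differ between tissues. Cox6b1, the somatic partner of Cox6b2, was at 1092 and 971 against 959 and 890 and was not called (adjusted p = 0.363). The ratio of Cox6b2 to Cox6b1 was 0.0705 and 0.0762 in WT and 0.128 and 0.138 in the knockout, 1.82 times the WT ratio. Cox7a1, the heart and muscle isoform, was at 78 and 62 against 70 and 63, and Cox7a2, the isoform most cells use, at 238 and 219 against 220 and 199. Their ratio stayed between 0.283 and 0.328 in the 4 libraries. Cox7a2l, a related protein that joins complexes III and IV into supercomplexes, was at 129 and 118 against 117 and 103 (adjusted p = 0.382).

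The isoforms that respond to low oxygen were near the lower limit of the table. Ndufa4l2, a paralog of Ndufa4 known as a hypoxia target, was at 0 in both WT libraries and at 7 and 3 in the knockout. It reached the filter for testing only through its knockout values, so its fits are no support for a rise. The same limit holds wherever Ndufa4l2 is counted among the members higher or called. Cox4i2, the oxygen-responsive isoform of subunit IV, was at 1 and 1 against 2 and 3 (adjusted p = 0.11). For both genes the knockout values were above both WT values, as in 26.2% of all tested genes. At such low values a dropped decimal weighs more. Among the common isoforms, Cox8a of subunit VIII was at 1501 and 1492 against 1565 and 1555 (adjusted p = 0.0626), and Cox6a1 of subunit VIa at 1133 and 1163 against 1229 and 1341 (adjusted p = 0.197).

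In complex V 1 of 16 tested members was called, beside 11.0% of all tested genes and 18.4% of those with a mean of at least 50. The median log2 fold change was -0.05, with a range of -0.22 to 0.21. Atp5a1, the alpha subunit of the catalytic head, was at 1084 and 1094 in WT and fell to 971 and 989 (-0.15, SE 0.01, adjusted p = 0.0332). Atp5b, the beta subunit that holds the catalytic sites, was at 2616 and 2524 against 2415 and 2396 without a call (-0.10, SE 0.02, adjusted p = 0.128), and its direction turned under quantile normalization (0.02). For Atp5a1 and Atp5b both knockout values were below both WT values, beside 37.2% of all genes with a mean of at least 50. Over the 16 tested members both knockout values were below both WT values in 7, above them in 3 and overlapped them in 6. Of genes with a mean of at least 50, 37.2% were below and 34.7% above. Atp5a1 lost its call under quantile normalization (log2 fold change -0.09, limma adjusted p = 0.159).

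The rotor ring of complex V is made of subunit c, which has 3 genes. Atp5g1 was at 980 and 963 against 927 and 955, Atp5g3 at 925 and 884 against 895 and 922, and Atp5g2 at 81 and 82 against 103 and 87. None of these was called, with adjusted p of 0.306, 0.959 and 0.304, and the groups overlapped for Atp5g3. Of the 50-base words of Atp5g2 38.3% occur in other genes, chiefly a transcribed processed pseudogene.

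The position of the members on chromosomes went with their direction. Genes of chromosomes 6 and 8 were higher in the knockout as a class, with median log2 fold changes of 0.45 over 555 and 0.21 over 646 tested genes, against -0.02 over the 10030 others. On chromosome 6, 30.5% of genes rose, on chromosome 8, 12.5%, and elsewhere 3.27%. The 4 members on chromosome 6 are Ndufa4, Ndufa5, Ndufa9 and Ndufb2, with a median of 0.43, and the 3 on chromosome 8 are Cox4i1, Ndufb7 and Ndufa13, with a median of 0.16. These medians are close to those of their chromosomes. In each of the 7 genes both knockout values were above both WT values, as in 67.6% of the genes of chromosome 6 and 52.5% of those of chromosome 8.

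Ndufa9, a matrix arm subunit that binds a nucleotide cofactor, was at 157 and 150 against 205 and 192 (log2 fold change 0.37, adjusted p = 0.0539, and 0.00308 with random decimals). Ndufb2, of the membrane arm, was at 131 and 123 against 148 and 158 (0.27, adjusted p = 0.103). On chromosome 8, Ndufb7 was at 432 and 409 against 458 and 526 (0.22, adjusted p = 0.244) and Ndufa13 at 144 and 141 against 148 and 147 (0.05, adjusted p = 0.184), neither with a call. On the other chromosomes 2 of 82 members rose (beside 3.27% of genes), Ndufv3 and Cox6b2, and 7 fell (beside 6.25%), with a median of -0.07. The class level of chromosomes 6 and 8 moved with 3 of the 5 rises, and its part in them was not tested.

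**Figure D3:**
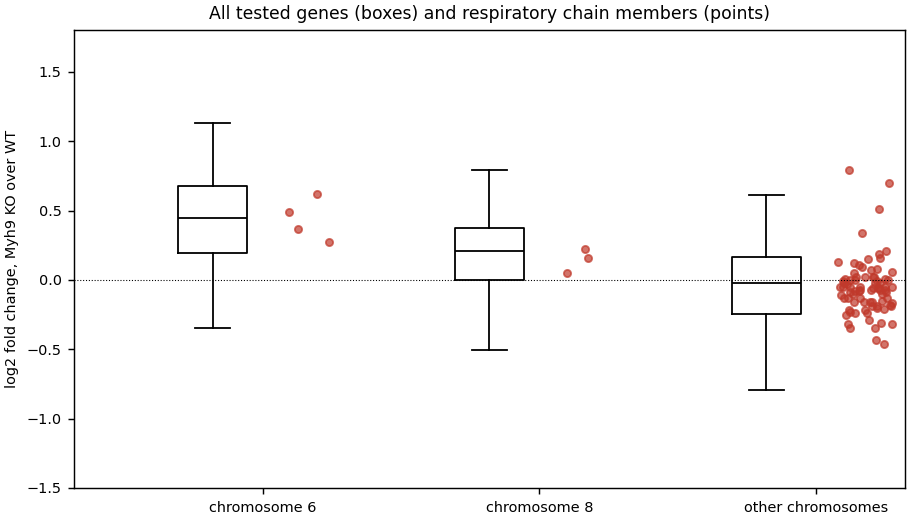
Log2 fold change (y axis) of all tested genes as boxes (median, quartiles, whiskers at the 5th and 95th percentiles) and of the members as red points, for chromosome 6, chromosome 8 and the others. The members of chromosomes 6 and 8 lie around the raised medians of 0.45 and 0.21. Ndufa4l2 is not drawn, and points are spread sideways for legibility.

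Summed over each complex, the nuclear values were nearly level. Complex I summed to 8537 and 8260 for WT and 8611 and 8580 for the knockout, and complex IV to 10856 and 10583 against 10826 and 10703. Complex II (610 and 606 against 577 and 557), complex III (4926 and 4760 against 4502 and 4493) and complex V (10374 and 10130 against 9867 and 9747) were lower in both knockout libraries, at 0.933, 0.929 and 0.957 of the WT mean. Without the genes of chromosomes 6 and 8, complex IV was lower too (8651 and 8363 against 8127 and 8023), while complex I stayed level (7575 and 7338 against 7508 and 7424). A sum is dominated by its highest genes, and no test was made on it.

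The subunit transcripts of the mitochondrial genome stood lower than the nuclear ones in each complex they serve. Their sums were 0.507 of the WT mean for complex I, 0.635 for complex III, 0.561 for complex IV and 0.565 for complex V, where the nuclear sums were at 1.023, 0.929, 1.004 and 0.957. Of the 13 transcripts 5 fell by both limma fits, 4 in complex I and 1 in complex IV, beside 5.81% of all tested genes and 9.28% of those with a mean of at least 50. All 13 were lower by random decimals alone, beside 12.1% and 20.1%. Myh9 KO 1 and Myh9 KO 2 differed in these sums, at 4630 and 3989 in complex IV and 447 and 303 in complex V, and less in complex I (1547 and 1466). The 13 transcripts had a median GC content of 37.1%, against 51.7% for the members.

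**Figure D4:**
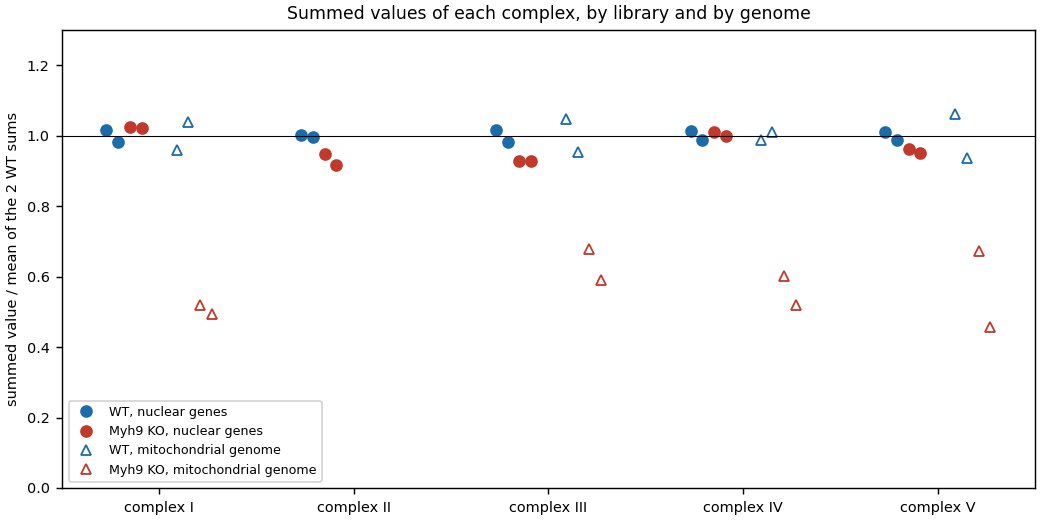
Summed values per library for the nuclear members (filled circles) and the mitochondrial genome's transcripts (open triangles) of each complex, divided by the mean of the WT sums (y axis, linear from 0). Nuclear sums of Myh9 KO (red) stay close to 1 in every complex, while the mitochondrial ones lie far below WT (blue); complex II has no mitochondrial transcript.

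Fold changes of the members varied with the GC content of their transcripts. Over the 82 members outside chromosomes 6 and 8, Spearman's rho between GC content and log2 fold change was 0.427, and over 10019 genes outside them it was 0.318. A similar relation was present within one genotype, between the knockout libraries (Myh9 KO 2 over Myh9 KO 1, rho 0.408 for the members), and was weak between the WT libraries (0.0478). The genes share libraries and are not independent, so these values carry no p. Of the members under 47% GC, 13 of 18 were below 0 (median -0.09), of those at 47% to 50%, 16 of 18 (median -0.15), at 50% to 54%, 16 of 21 (median -0.05), and at 54% or more, 12 of 25 (median 0.00). Over all genes outside chromosomes 6 and 8 the same bins held 1596 of 2343 below 0 (median -0.18), 1041 of 1697 (-0.10), 1205 of 2399 (0.00) and 1318 of 3580 (0.07). With the trend on GC content and length removed, 12 members were higher and 9 lower and the median was -0.02. Ndufa4, Ndufa5, Ndufv3, Cox6b2, Cox4i1, Cox5a, Ndufa8, Atp5a1 and Ndufaf5 kept their calls there, and Ndufb6, Ndufs3 and Cox7c lost theirs.

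**Figure D5:**
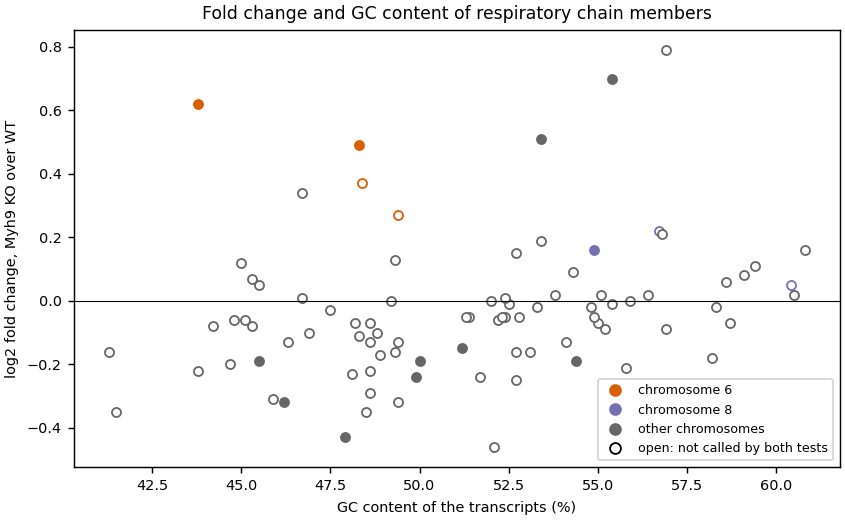
Log2 fold change (y axis) against mean GC content of the gene's annotated transcripts in percent (x axis) for the tested members; filled points were called by both fits and colours give the chromosome. Outside chromosomes 6 and 8 most points below 50% GC lie under 0 (13 of 18 and 16 of 18 members in the lower 2 bins). Ndufa4l2 is not drawn.

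Many respiratory chain promoters are known to carry words for NRF1, for GABPA and other ETS factors, or for YY1. Words of these factors were searched on both strands in the RefSeq promoter windows (GRCm38.p6, 250 bases before to 50 after a start), which 77 members had. The stretches below are from the 3 called members that held a word (Ndufa8, Ndufaf5 and Ndufs3) and, for each factor, from the member with the highest mean among those not called, as 30 bases of the gene's own strand, 5′ to 3′, with the matched word in capitals.
Ndufa8, inner NRF1 word: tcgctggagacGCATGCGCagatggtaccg
Ndufaf5, NRF1 word: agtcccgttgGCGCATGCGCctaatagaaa
Cox6a1, NRF1 word: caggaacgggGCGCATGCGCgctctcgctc
Ndufs3, ETS word on the other strand: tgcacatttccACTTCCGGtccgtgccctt
Cox8a, ETS word on the other strand: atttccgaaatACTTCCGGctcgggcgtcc
Ndufs6, YY1 word: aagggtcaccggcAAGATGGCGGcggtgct
On GRCm38.p6 they lie at chr2:36049328-36049357, chr2:140170652-140170681, chr5:115349101-115349130, chr2:90904703-90904732, chr19:7217604-7217633 and chr13:73328433-73328462, on the minus strand except for Ndufaf5.

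The NRF1 word in the Ndufaf5 and Cox6a1 lines was in windows of 7 members (9.09%, beside 1.07% of 27025 genes), and its inner part GCATGCGC, which it contains, in 12 (15.6%, beside 3.05%). The ETS word CCGGAAGT was in 5 (6.49%, beside 4.31%) and the YY1 word of the Ndufs6 line in 7 (9.09%, beside 0.995%). A match is a string in a window and not a measured binding site. The 27025 genes were not limited to tested ones or matched to the members in level or GC content. Of the members with these words 9 of 12 (inner NRF1 word), 2 of 5 (ETS) and 5 of 7 (YY1) had log2 fold changes below 0, with medians of -0.08, 0.00 and -0.07, beside 57 of the 89 tested members and their median of -0.05. Among the 12 with the inner NRF1 word log2 fold changes ran from -0.43 to 0.21 with 2 falls, among the 5 with the ETS word from -0.19 to 0.08 with 1 fall, and among the 7 with the YY1 word from -0.22 to 0.37 with 0 called by both fits. The windows of Ndufa4, Ndufa5, Ndufv3, Cox6b2, Cox5a and Cox7c held none of these words.

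Of 11 tested regulators of mitochondrial biogenesis 1 rose and 1 fell, beside 5.15% of all tested genes higher and 5.81% lower. Nrf1 itself, which lies on chromosome 6, rose to 95 and 93, against 64 and 70 in WT (log2 fold change 0.48, SE 0.06, adjusted p = 0.0447). Mycn, a factor of the MYC family, was at 88 and 90 in WT and fell to 58 and 55 (-0.65, SE 0.04, adjusted p = 0.0151). Myc of the same family went the other way without a call, at 26 and 26 against 36 and 41 (0.55, limma adjusted p = 0.0602, and 0.00519 with random decimals).

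Genes that assemble, serve or feed the chain were counted beside the members, with 5.15% of all tested genes higher and 5.81% lower as the background of these lists. Of 38 tested assembly factors outside the name rule 0 rose and 1 fell, with a median log2 fold change of -0.05. It was Acad9, a complex I assembly factor related to acyl-CoA dehydrogenases, at 21 and 22 against 14 and 15 (-0.54, SE 0.05, adjusted p = 0.0332). Of 22 electron carriers and inputs 1 rose and 2 fell, with a median of -0.03. The ADP/ATP carrier genes went apart: Slc25a4, on chromosome 8, rose to 165 and 166, against 128 and 129 in WT (0.36, SE 0.01), while Slc25a5 was at 732 and 732 and fell to 560 and 565 (-0.38, SE 0.01), with adjusted p of 0.00511 and 0.00393. Etfb, part of the flavoprotein that delivers electrons from fatty acid oxidation, was at 288 and 297 and fell to 247 and 249 (adjusted p = 0.0295).

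Of 22 tested genes of the citrate cycle and pyruvate entry 2 rose and 4 fell, with a median log2 fold change of -0.09. Both pyruvate carrier genes were among the falls, Mpc1 at 55 and 54 against 40 and 41 (-0.42, SE 0.02, adjusted p = 0.0139) and Mpc2 at 29 and 28 against 19 and 17 (-0.64, SE 0.07, adjusted p = 0.0408). The citrate synthase gene Cs (217 and 223 against 197 and 194) and the isocitrate dehydrogenase gene Idh2 (268 and 269 against 215 and 220) were the others. The rises were Suclg1 (143 and 147 against 186 and 198) and Suclg2 (39 and 41 against 64 and 63), subunits of succinyl-CoA synthetase, and both lie on chromosome 6.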

How the data were processed

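RNA-seq of 2 WT and 2 Myh9 KO libraries was deposited as 1 table of whole-number values, treated as a score: the authors' values sum to nearly the same total in every library, as a per-million unit without decimals would, and are not counts. Bowtie2 2.2.5, RSEM 1.3.0, bcl2fastq and the builds mm10 and hg38 are named without roles per the submitters' processing notes. Coordinates are those of the table, and 92.99% of the identifiers found in GENCODE vM21 (GRCm38, mm10) had the same ones.

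From these, limma-trend (limma 3.58.1, R 4.3.3) was fitted after adding 1 and taking log2, on genes averaging at least 1, and again after adding a uniform random decimal to each value (median adjusted p over 25 draws). Equal whole numbers in replicates leave no spread, which is why both fits had to call a gene. The fits were also run on simulated data with independent noise for each gene. These held no GC-linked or chromosome-wide shift, so the run does not measure errors of the calls here.

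Members and lists were chosen with earlier results of these data known. Members named are, per complex, up to 6 called genes with the largest change, the 2 highest genes not called, and a fixed set of catalytic subunits and isoforms; the other members named on chromosomes 6 and 8 and Ndufaf7 were chosen after their values were seen. Pathway genes named are the 4 called ones with the smallest p in a list, with Mpc2 and Cs added after their values were seen to name every gene counted. Myc and Zfp42, which were not called, were also added after their values were seen. GC content and length are means over a gene's GENCODE vM21 transcripts, and shared 50-base words were counted in the same transcripts. Protein identity between isoforms was not analysed here. Alternatives were other pseudocounts (0.5 and 5), filters (none and 10), quantile normalization, removal of the GC and length trend, omission of chromosomes 6 and 8, each fit alone, a replicate block, and each library left out. Of complex I, 1 member is not reported here by name, but is included in the counts, medians and sums.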

Additional observations from a re-analysis of the deposited data

How the results depend on the processing

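The depth is unknown and each group has 2 libraries, so single calls are fragile. Pseudocounts of 0.5 and 5 changed no member's call, and without a filter only Ndufs3 lost its call. The planned comparison of isoform proteins was not run. The causes of the changes below were not tested.

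With random decimals alone 1245 genes were higher and 1355 lower, with 11 and 19 members, 6 and 7 in complex I, 5 higher in complex IV, and 3, 4 and 2 lower in complexes III and V and the assembly factors. Testing genes with a mean of at least 10 gave 4 higher in complex I and 2 lower in complex III. Quantile normalization gave 1 lower in complex III and in complex IV and 0 in complex V and the assembly factors, a complex II median of -0.11, and turned Ndufb8 (-0.01) and Atp5b (0.02).

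With the trend on GC content and length removed 1209 genes were higher and 1280 lower. Among members 12 were higher, 7 of them in complex I and 5 in complex IV, and 2, 1 and 2 were lower in complexes III and IV and the assembly factors. Medians were -0.06 in complex II and 0.04 in complex IV. Directions turned for Cox7c (0.02), Cox7a2 (0.06), Uqcr11 (-0.01), Cyc1 (-0.11), Ndufb8 (-0.02), Cox8a (-0.02), Ndufv1 (-0.07) and Sdhc (-0.01). Without chromosomes 6 and 8, 304 genes and 2 members were higher (1 in complex I, 1 in complex IV), the complex I median was -0.05, and Ndufs3 lost its call.

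Replicate numbers are shared by the labels without a stated pairing, and the difference between WT replicates correlated with that between knockout replicates at r = 0.0407 over genes and 0.199 over genes with a mean of at least 10, where 85 of the 89 tested members lie. With a replicate block 10 genes were higher and 44 lower and 0 members were called in either direction (0 in complexes I, IV and V and in the assembly factors), while random decimals alone gave 11 and 21 members.

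Leaving out 1 library at a time gave 140 to 345 genes higher and 198 to 417 lower, 1 to 4 members higher and 0 to 1 lower. Complex I had 0 to 2 higher and 0 lower, complex IV 1 to 2 higher and 0 lower, complex V 0 lower and the assembly factors 0 to 1 lower. Medians were -0.05 to 0.01 (complex I), -0.13 to -0.10 (II), -0.04 to 0.03 (IV), -0.09 to -0.03 (V) and -0.31 to -0.16 (assembly factors). Fold changes crossed 0 for Ndufv1 (-0.01 to 0.05), Cox7a1 (-0.23 to 0.10), Atp5g3 (-0.03 to 0.04), Sdhc (-0.08 to 0.10), Cyc1 (-0.01 to 0.05) and Ndufb8 (-0.03 to 0.06).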

Other observations

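Ndufv3 and Cox6b2, the members that rose outside chromosomes 6 and 8, differed in their surroundings. Of the 3 nearest tested genes on either side of Ndufv3, 2 also rose: Wdr4, which codes for a subunit of a tRNA methyltransferase (39 and 41 against 51 and 50, log2 fold change 0.33, limma adjusted p = 0.0383), and Cbs, the gene of cystathionine beta-synthase (44 and 45 against 63 and 65, 0.51, adjusted p = 0.0128). U2af1 and Pknox1, the other close neighbours on the higher side, were not called (-0.07 and 0.00). Of the 6 nearest tested genes of Cox6b2 none was called by both limma fits, with log2 fold changes of -0.17 to 0.33. Beside Ndufa4 on chromosome 6, Rpa3, which codes for a subunit of the replication protein A complex, rose to 196 and 173, against 109 and 114 in WT (0.72, adjusted p = 0.0421), and its other 5 neighbours were not called. Rises made up 30.5% of the tested genes of chromosome 6 and 3.27% of those outside chromosomes 6 and 8. Beside Ndufa5, also on chromosome 6, 0 of 6 neighbours rose and 2 fell, Gm5989 (44 and 53 against 4 and 3) and Gm44942 (2 and 2 against 0 and 0). Gm44942 reached the filter for testing only through its WT values, so its call is no support for a fall. Of the 555 tested genes of chromosome 6, 14 fell. Both knockout values were above WT, without a call, for Gcc1 (5 and 6 against 9 and 9, 0.63) and Pot1a (11 and 14 against 19 and 17, 0.5). These neighbours were looked at after the members' values were seen.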
